A study of Mus musculus with 16 samples.

Results

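The nuclear-encoded genes of the mitochondrial respiratory chain were followed in the mouse pancreas during cerulein-induced acute pancreatitis, with and without a defect in the protease ADAM17. Members were taken by name from a table of 24019 genes: 100 names began with the symbols used for subunits of complexes I to V, 13 of these were set aside because their names mark them as pseudogenes, and 87 members remained. They comprised 38 genes of complex I, 4 of complex II, 8 of complex III, 20 of complex IV and 17 of complex V. Ndufa4 and Ndufa4l2, which carry complex I names, were counted with complex IV. Another 4 members (Ndufa11b, Ndufs6b, Ndufb4c and Cox6c2) kept an ordinary name but are annotated as processed pseudogenes, and they stayed in as the name rule has them.

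The pancreata came from C57BL/6J wild-type (WT) mice and from Adam17ex/ex littermates, which carry a hypomorphic Adam17ex allele in the germ line, so that the defect is not limited to the pancreas. All mice were 6 to 8 weeks old. Cerulein, an analogue of the hormone cholecystokinin that overstimulates acinar cells, was injected intraperitoneally at 50 µg/kg, once an hour for 7 injections, and control mice of each genotype received phosphate-buffered saline (PBS). Tissue was taken 1 hour after the last injection. Each of the 4 groups (WT PBS, WT cerulein, Adam17ex PBS, Adam17ex cerulein) had 4 libraries. WT PBS had 0 males, WT cerulein 1, Adam17ex PBS 2 and Adam17ex cerulein 2, so sex was a term of every fit. The labels call the libraries replicates and do not state that each came from its own mouse, so the p-values describe the spread between these libraries.

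The respiratory chain sits in the inner mitochondrial membrane. Complexes I and II take electrons from NADH and succinate, complex III passes them through cytochrome c to complex IV, which reduces oxygen, and complex V uses the resulting proton gradient to make ATP. Most subunits are encoded in the nucleus and imported, while a small core is encoded by mitochondrial DNA. Acinar cells spend much ATP on making and secreting digestive enzymes, and mitochondrial injury is a known early feature of pancreatitis.

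Levels are counts of unique molecular identifiers (UMIs) put on a common scale with edgeR's TMM factors (CPM, counts per 1e6 UMIs). Each transcript is counted once, at its 3' end, so the level of a gene does not grow with its length and levels are not divided by it. Depth ran from 455547 to 1476159 UMIs per library. Adam17ex PBS replicates 1, 2 and 3 stood apart, with 492878, 475952 and 455547 UMIs and with 9.02%, 7.84% and 8.08% of them on the ribosomal RNA row CT010467.1. The other 13 libraries had at least 859573 UMIs, and the share of that row in them was between 2.02% and 5.04%. Adam17ex cerulein effects and the PBS genotype comparison rest on those 3 libraries and are given with and without them as counts, medians and the values of the genes described first. Adam17, the targeted gene, stood at 14.1, 11.9, 5.25 and 9.80 CPM in the WT PBS libraries, 15.4, 11.1, 19.3 and 11.6 in WT cerulein, 2.60, 2.58, 6.03 and 5.05 in Adam17ex PBS and 3.16, 3.55, 2.40 and 4.09 in Adam17ex cerulein. The genotypes did not overlap under cerulein (log2 fold change -2.05 ± 0.40 SE, edgeR adjusted p = 0.00138) and overlapped under PBS (-1.21 ± 0.49, edgeR adjusted p = 0.210). The tissue label fitted the markers: the 8 acinar markers summed to between 108680 and 221555 CPM over the 16 libraries, whereas 5 skeletal muscle markers summed to at most 5.05 CPM and 3 brown adipocyte markers to at most 14.1 CPM.

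Upstream sequences are shown first because many nuclear respiratory genes are known targets of the nuclear respiratory factors NRF1 and NRF2 (GABP, an ETS factor). A RefSeq promoter window (250 bases before the start to 50 after, GRCm38.p6) was found for 68 of the 87 members. An NRF1 motif with 1 free central base, searched on both strands, lay in the windows of 17 of these 68 (25.0%), against 13.4% of the tested genes that have a window and 5.19% of all genes in the promoter table. The ETS motif CCGGAAG lay in 17 of 68 (25.0%), against 22.7% and 9.93%, and a YY1 motif in 4 of 68 (5.88%), against 2.41% and 0.755%. A match is a description of the letters and not of binding. The members below had an NRF1 match and a cerulein effect that differed between the genotypes (tests further on), except Uqcr11, which is shown for an ETS match. Ndufa5 has more than 1 annotated start, and the nearer one is used. Each run reads 5′ to 3′ on the gene's strand and ends at or before the last base upstream of the RefSeq start, with the motif in capitals. The annotated gene spans can begin elsewhere. The runs of Ndufs6, Ndufa5 and Atp5g2 lie inside the spans of those genes.

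Ndufs6, chr13:73328483-73328538, minus strand: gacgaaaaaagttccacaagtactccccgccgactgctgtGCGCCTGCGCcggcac
Ndufs5, chr4:123718235-123718324, minus strand: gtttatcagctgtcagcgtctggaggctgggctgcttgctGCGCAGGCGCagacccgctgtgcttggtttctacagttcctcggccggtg
Ndufa5, chr6:24527691-24527756, minus strand: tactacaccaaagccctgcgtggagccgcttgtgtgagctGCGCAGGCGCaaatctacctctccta
Ndufa11, chr17:56717662-56717751, plus strand: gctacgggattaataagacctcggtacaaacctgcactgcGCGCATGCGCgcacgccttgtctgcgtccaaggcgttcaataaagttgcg
Atp5h, chr11:115420011-115420100, minus strand: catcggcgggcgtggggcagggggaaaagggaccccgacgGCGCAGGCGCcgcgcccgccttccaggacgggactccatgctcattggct
Atp5g2, chr15:102671048-102671129, minus strand: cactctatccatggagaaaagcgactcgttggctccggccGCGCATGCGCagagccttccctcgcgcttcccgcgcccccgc
Uqcr11, chr10:80406841-80406927, minus strand: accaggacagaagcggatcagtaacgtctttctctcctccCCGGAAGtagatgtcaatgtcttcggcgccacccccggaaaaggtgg

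In all 6 NRF1 matches the motif begins between 16 and 141 bases upstream of the start. The ETS match of Uqcr11 begins 66 bases upstream.

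In the pancreas of PBS-treated WT mice the 87 members together took 1.12% ± 0.158 (SD, n = 4) of all UMIs. Under cerulein this share was 0.707% ± 0.0601 (SD, n = 4) in WT mice. In Adam17ex mice it was 0.771% ± 0.238 (SD, n = 4) under PBS and 0.685% ± 0.118 (SD, n = 4) under cerulein. The WT PBS libraries (0.972% to 1.34%) all lay above the WT cerulein libraries (0.656% to 0.791%). The Adam17ex PBS libraries spread from 0.530%, 0.667% and 0.802% in the 3 shallow libraries to 1.09% in replicate 4, so that only replicate 4 lay within the WT PBS range.

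**Figure D1:**
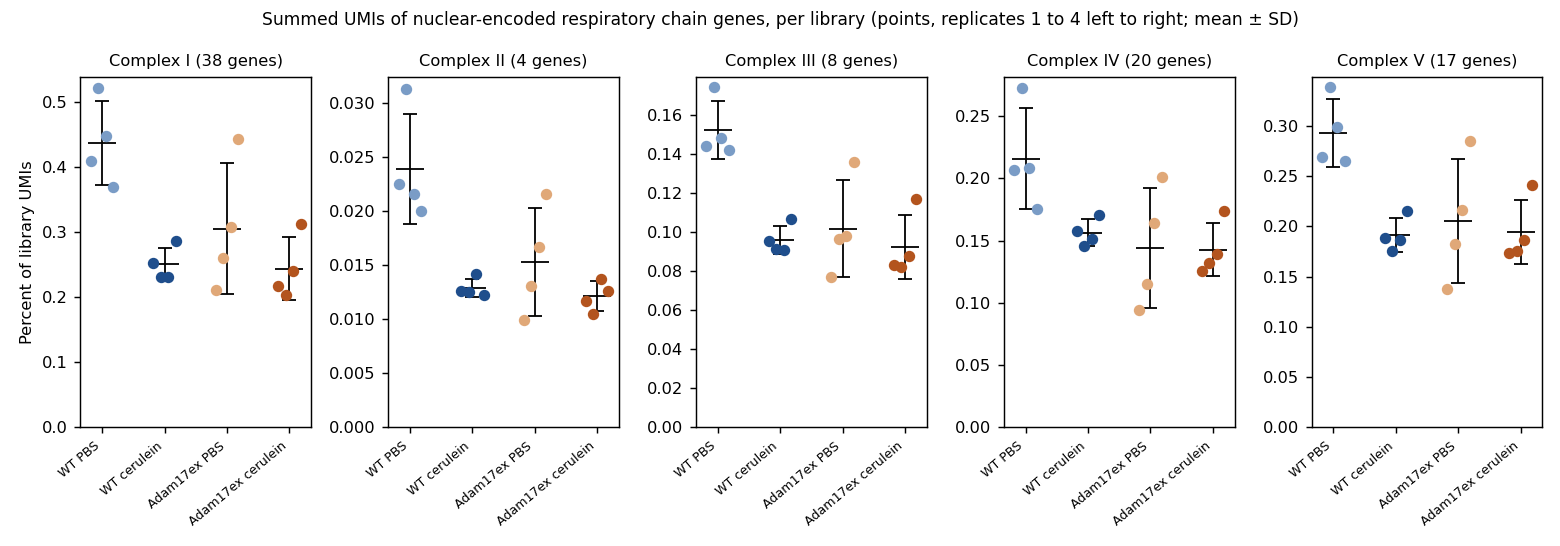
Percent of each library's UMIs (y axis) taken by the members of complexes I to V in the 4 groups (x axis). Points are libraries, the bar is the mean and the whiskers are 1 SD. For all members together the WT PBS libraries lie above 0.971% and the WT cerulein libraries below 0.792%, and Adam17ex PBS is the group with the widest spread (SD 0.238% over all members).

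Of the 87 members, 79 passed the filter on low counts. The 8 that did not were nearly all forms made in other tissues: Cox4i2 and Cox7b2 had 2 counts each over all 16 libraries, Cox6b2 and Cox7a1 11 each, Ndufa4l2 15, Cox8b 22, Cox6a2 27 and the pseudogene Ndufa11b 64. The heart and muscle forms of complex IV subunits (Cox6a2, Cox7a1, Cox8b) were therefore close to undetected. Their widely expressed counterparts were well covered: in WT PBS, Cox6a1 stood between 232 and 387 CPM, Cox7a2 between 132 and 221 and Cox8a between 119 and 184.

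The first comparison asked what cerulein does to these genes in WT mice. Of the 79 tested members, 65 fell, where 21.3% of all 8236 genes tested were called lower. None rose in edgeR at an adjusted p under 0.05, where 19.8% of all genes were called higher. The count of higher members was also 0 at an unadjusted p under 0.05 (23.7% of all genes), in DESeq2 and in limma-voom. The median log2 fold change was -0.88 over the members and -0.04 over all genes tested, and 78 of the 79 values were negative. In 68 members every cerulein library lay below every PBS library, which held for 20.2% of all genes. In whole tissue, fewer cells of a type and less RNA per cell cannot be told apart.

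The fall reached all 5 complexes, with the lowest medians in the 2 that take up electrons. Complex I had 32 of 37 tested members lower with a median of -1.06, and complex II had 3 of 4 with a median of -1.12. Complex III had 8 of 8 lower (median -0.67), complex IV 9 of 13 (median -0.71) and complex V 13 of 17 (median -0.78). The summed UMIs of complex I were 1.49 ± 0.0656 (SD, n = 4) times those of complex V in WT PBS and 1.31 ± 0.0458 in WT cerulein, and the ranges of the 4 libraries (1.39 to 1.54 and 1.24 to 1.34) did not overlap. No test was made of a difference between complexes, since members of a complex are not replicates.

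In complex I, the core subunits that carry the flavin and the iron-sulphur clusters had 6 of 7 members lower (median -1.13), and the accessory subunits had 26 of 30 (values from -1.69 to -0.12). Ndufs6, an accessory subunit needed late in assembly (chr13:73319838-73328542), had the smallest adjusted p. It stood at 223, 226, 197 and 228 CPM in WT PBS and at 93.2, 103, 86.7 and 90.9 CPM in WT cerulein. The 2 groups lay far apart, and the log2 fold change was -1.18 ± 0.15 SE (edgeR adjusted p = 2.17e-06). Its promoter is the first of the runs shown above. Ndufv3 (-1.69 ± 0.24) and the iron-sulphur subunit Ndufv2 (-1.67 ± 0.23) had the largest falls of any member; they are named after their values were seen. The most abundant member by mean CPM, Ndufa6 (chr15:82350140-82354322), did not pass: it stood at 188, 304, 255 and 256 CPM in WT PBS and at 202, 222, 190 and 262 in WT cerulein. Those groups overlapped (log2 fold change -0.12 ± 0.19, edgeR adjusted p = 0.652). Ndufa12, Ndufb6 and the pseudogene Ndufs6b also did not pass.

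Complex II is succinate dehydrogenase, which also works in the tricarboxylic acid cycle. Sdhb, its iron-sulphur subunit (chr4:140961203-140979193), stood at 94.0, 118, 72.4 and 77.2 CPM in WT PBS and at 20.8, 31.0, 28.7 and 33.9 in WT cerulein. The groups did not overlap, and the log2 fold change was -1.56 ± 0.21 SE (edgeR adjusted p = 3.59e-06). The flavin subunit Sdha fell by 1.04 ± 0.22 on the log2 scale and the membrane anchor Sdhc by 1.20 ± 0.22. For the other membrane anchor, Sdhd, the groups overlapped (-0.46 ± 0.21, edgeR adjusted p = 0.0898).

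In complex III, Uqcr11, a small subunit (chr10:80402997-80406830), stood at 283, 326, 241 and 281 CPM in WT PBS and at 87.7, 113, 107 and 111 in WT cerulein. All cerulein libraries were lower, with a log2 fold change of -1.37 ± 0.21 SE (edgeR adjusted p = 1.58e-05). Uqcrq, the most abundant member of the complex and the ubiquinone-binding subunit (chr11:53427922-53430831), stood at 422, 497, 462 and 575 CPM and then at 227, 259, 208 and 264. It fell by 0.97 ± 0.17 on the log2 scale (edgeR adjusted p = 9.15e-05), again with no overlap.

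In complex IV, Ndufa4, now known as a cytochrome c oxidase subunit (chr6:11900292-11907497), stood at 185, 218, 179 and 190 CPM in WT PBS and at 74.2, 113, 69.5 and 89.3 in WT cerulein. It had the smallest adjusted p of the complex (-1.12 ± 0.19, edgeR adjusted p = 6.36e-05), and its groups did not overlap. Cox4i1, the regulatory subunit and the most abundant of the complex (chr8:120668222-120674207), stood at 346, 379, 400 and 327 CPM in WT PBS and at 270, 306, 242 and 288 in WT cerulein. The lowest PBS library was above the highest cerulein library, yet the difference did not pass (-0.33 ± 0.18, edgeR adjusted p = 0.140). Cox7a2l, which helps join complexes III and IV into supercomplexes, was the 1 member with a positive value in WT: 121, 115, 94.5 and 88.2 CPM in PBS against 95.9, 112, 122 and 112 in cerulein. Those libraries overlapped (0.06 ± 0.17, edgeR adjusted p = 0.785). Its relative Cox7a2 fell by 0.81 ± 0.22 on the log2 scale and Cox8a by 0.81 ± 0.23, while Cox6a1 did not pass (-0.47 ± 0.22, edgeR adjusted p = 0.0833), nor did the pseudogene Cox6c2.

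In complex V, the catalytic F1 part had 3 of 5 members lower (median -0.74), and the membrane part, stalk and other subunits had 10 of 12 (median -0.91). Atp5h, the d subunit of the peripheral stalk (chr11:115415689-115419962), stood at 129, 129, 121 and 120 CPM in WT PBS and at 51.6, 49.8, 51.6 and 60.3 in WT cerulein. The groups did not overlap, and the log2 fold change was -1.18 ± 0.16 SE (edgeR adjusted p = 5.14e-06). Atp5b, the catalytic beta subunit and the most abundant member of the complex (chr10:128083273-128090391), stood at 240, 311, 290 and 311 CPM and then at 217, 237, 208 and 217. Its groups were just apart and it did not pass (-0.34 ± 0.17, edgeR adjusted p = 0.109). Atp5d, Atp5md and Atp5g3 were the other members of the complex that did not pass.

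Atp5g1, Atp5g2 and Atp5g3 encode the same mature c subunit of the proton-carrying ring from separate genes, and they responded unequally. Atp5g1 (chr11:96068852-96075670) stood at 172, 243, 211 and 217 CPM in WT PBS and at 80.5, 56.5, 68.0 and 93.4 in WT cerulein (-1.45 ± 0.21, edgeR adjusted p = 6.56e-06). Atp5g2 fell by 0.84 ± 0.22 on the log2 scale, and Atp5g3 did not pass (-0.34 ± 0.18, edgeR adjusted p = 0.127). Of the UMIs on these 3 genes, Atp5g1 held 45.1% ± 2.40 (SD, n = 4) in WT PBS and 29.0% ± 5.22 (SD, n = 4) in WT cerulein, and the ranges (41.7% to 47.2% and 21.6% to 32.7%) did not overlap. In Adam17ex mice it held 35.2% ± 4.24 (SD, n = 4) under PBS and 29.2% ± 3.32 (SD, n = 4) under cerulein. Those ranges (32.3% to 41.5% and 25.0% to 32.0%) were just apart.

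**Figure D2:**
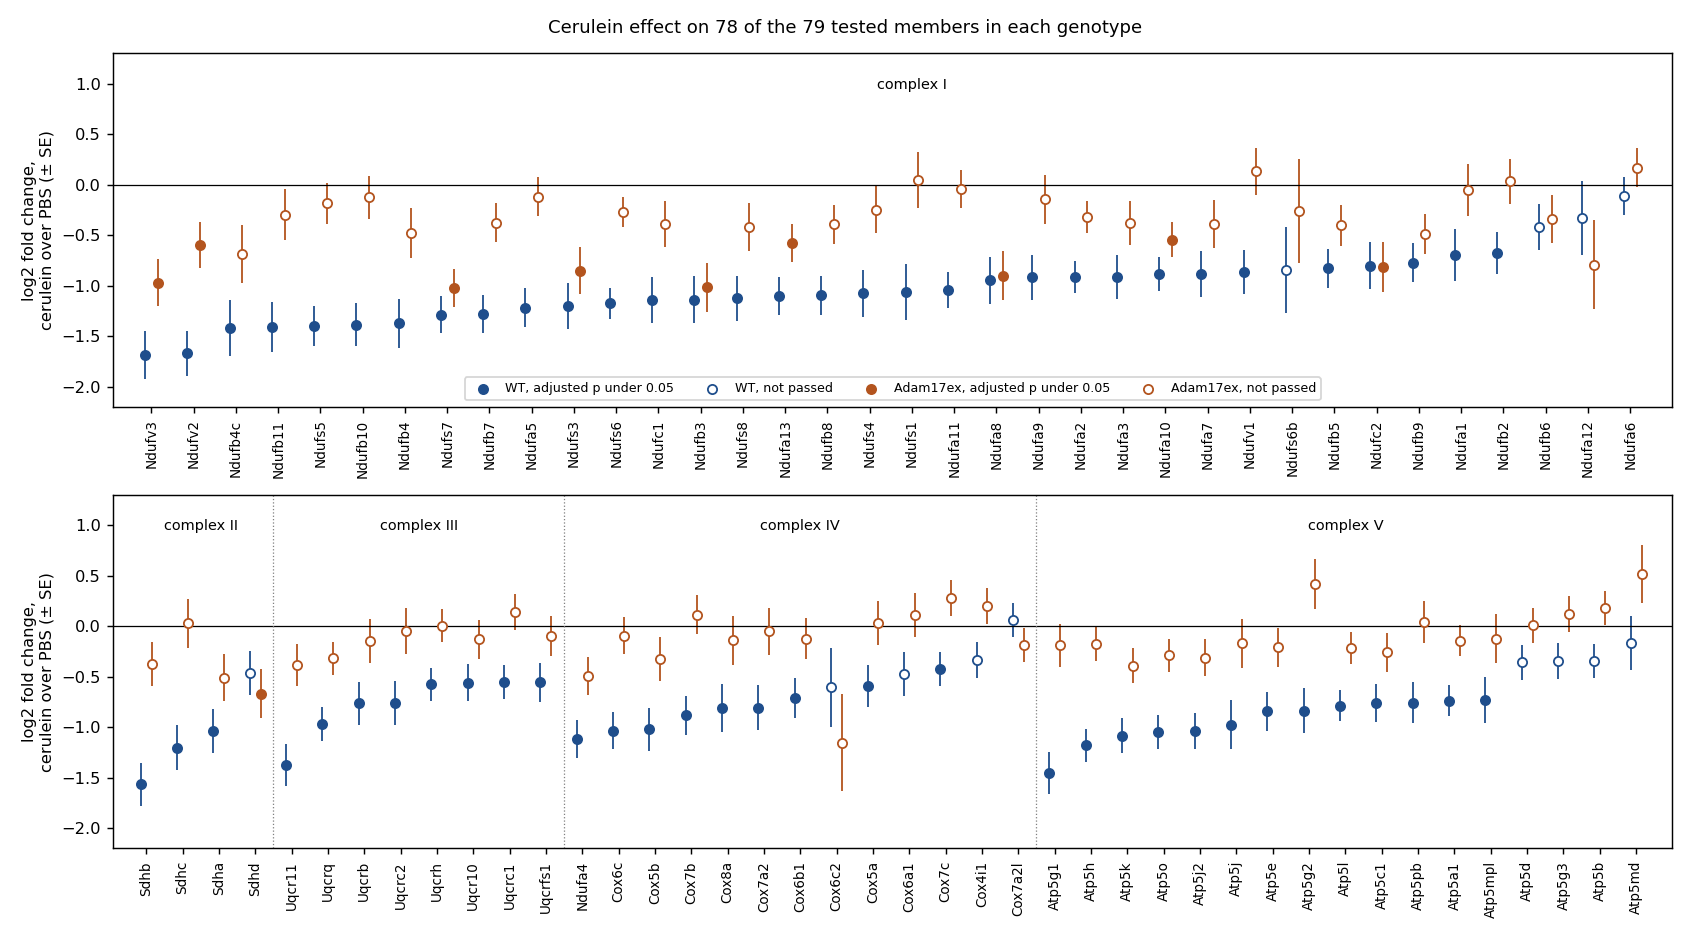
Log2 fold change of cerulein over PBS (y axis) for 78 of the 79 tested members (x axis), in WT (blue) and Adam17ex (brown). Whiskers are 1 SE, filled points have an edgeR adjusted p under 0.05, and members are ordered within each complex by their WT value; 65 points are filled for WT and 10 for Adam17ex.

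Markers of other cell types moved in the same WT libraries. Of the 6 duct markers 5 were tested, all 5 rose, and their sum went from between 222 and 266 CPM in PBS to between 1090 and 1373 CPM in cerulein. The 7 adipocyte markers summed to between 61.9 and 753 CPM in PBS and between 39.4 and 77.5 in cerulein, and all 6 tested were lower. All 5 erythroid markers and the 3 tested of 6 B and plasma cell markers were lower as well. Erythroid markers summed to between 433 and 10180 CPM in PBS and between 498 and 2933 in cerulein, and B and plasma cell markers to between 24.1 and 975 CPM and then between 7.88 and 44.3. The 36 digestive enzyme genes had 13 lower and 2 higher (median -0.44). With scaling factors computed without those enzymes, 64 members were lower (median -0.85). The part of cell type changes in the members' fall was not tested.

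The second comparison asked the same of Adam17ex mice. Here 10 of the 79 tested members fell, where 16.2% of all genes were called lower, so the members' share was near the background. None rose in edgeR (14.1% of all genes were called higher). Their count of higher members was also 0 at an unadjusted p under 0.05 (19.5% of all genes), in DESeq2 and in limma-voom. The median log2 fold change was -0.21, against -0.03 over all genes tested. In 5 members every cerulein library lay below every PBS library, against 11.9% of all genes. Complex I held 9 of the 10 calls (median of the complex -0.39) and complex II the other. Complexes III, IV and V had 0 calls in edgeR, with medians of -0.11, -0.10 and -0.17. At an unadjusted p under 0.05, where 21.6% of all genes were lower, these complexes had 0, 2 and 1 lower members. DESeq2 called none of them and limma-voom called 1, in complex IV.

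Ndufs7, a core iron-sulphur subunit of complex I (chr10:80249121-80256794), had the smallest adjusted p. It stood at 96.2, 114, 76.3 and 154 CPM in Adam17ex PBS and at 49.6, 53.3, 50.4 and 62.7 in Adam17ex cerulein. The groups did not overlap (-1.02 ± 0.19, edgeR adjusted p = 0.000319). In WT mice Ndufs7 went from 146, 167, 154 and 148 CPM to 55.2, 49.8, 56.6 and 76.0 CPM (-1.29 ± 0.18), and the difference between the genotypes did not pass (0.27 ± 0.26, edgeR adjusted p = 0.589). The other complex I calls, listed because they are few, were Ndufb3, Ndufv3, Ndufa8, Ndufs3, Ndufc2, Ndufv2, Ndufa13 and Ndufa10, with log2 fold changes from -1.02 to -0.55. The complex II call was Sdhd, which stood at 39.0, 33.6, 36.2 and 50.5 CPM under PBS and at 24.3, 28.4, 24.0 and 25.9 under cerulein (-0.67 ± 0.24, edgeR adjusted p = 0.0392). The call of Sdhd was lost in 15 of 29 alternatives, among them DESeq2 and the fit without the 3 shallow libraries (-0.95 ± 0.35, edgeR adjusted p = 0.0765). It was also lost without replicate 3 or 4 of WT PBS, replicate 1, 3 or 4 of Adam17ex PBS or any single Adam17ex cerulein library. Of the 10 genes, 9 were also lower in WT, which is 90.0% of the Adam17ex list and 13.8% of the WT list. Sdhd was the exception. Of all 79 tested members, 65 were lower in WT.

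**Figure D3:**
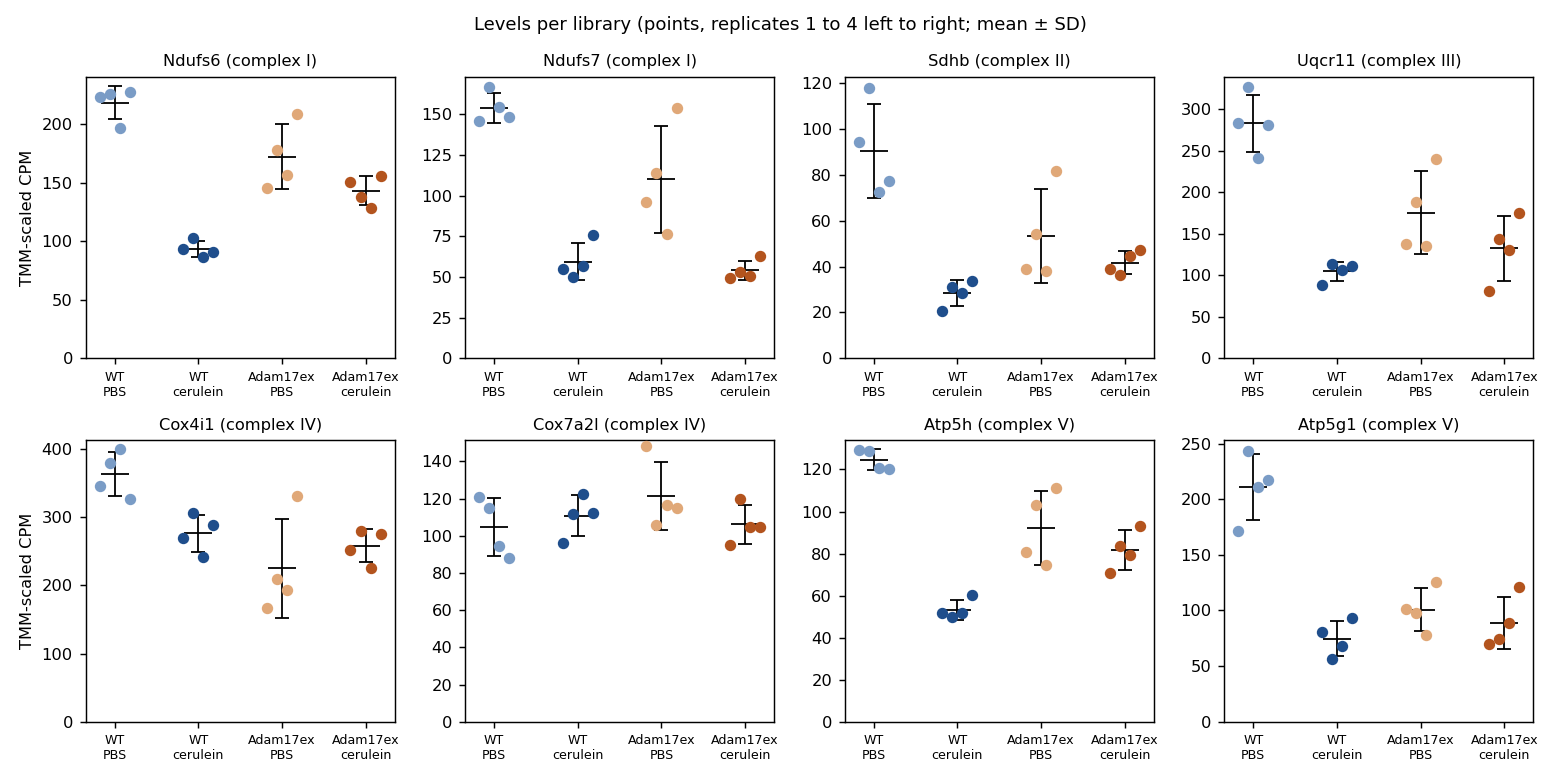
TMM-scaled CPM (y axis) of 8 members in the 16 libraries, by group (x axis). Points are libraries, the bar is the mean and the whiskers are 1 SD; Ndufs6, Sdhb, Uqcr11, Atp5h and Atp5g1 are high in WT PBS and low in WT cerulein, with no overlap, while Cox7a2l stays between 88.2 and 148 CPM in all groups.

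The Adam17ex counts moved when libraries of either Adam17ex group were left out. Without the 3 shallow libraries, which leaves replicate 4 as the only Adam17ex PBS library and assumes that it varies like the other groups, 12 of 80 members tested were lower, where 7.00% of all genes were, and all 12 were in complex I. The median over all members was -0.55, against 0.04 over all genes. By complex, I to V, the medians there were -0.66, -0.86, -0.43, -0.53 and -0.40. Ndufs7 stayed called there (-1.42 ± 0.26, edgeR adjusted p = 0.000964). Without replicate 4, 3 members were lower and 2 higher, with a median of -0.03, where 970 of 8576 genes were lower and 1138 higher. Without Adam17ex cerulein replicate 1, 3 members were lower and 1 was higher, where 1087 of 8622 genes were lower and 1224 higher. In female libraries alone, 2 members were lower, where 683 of 8871 genes were. Markers of other cells moved in the same libraries: 6 of 7 islet markers were lower, with sums of 5058 to 21996 CPM under PBS and 1749 to 6135 under cerulein, and 4 of 5 tested fibroblast and stellate markers were lower, with sums of 419 to 1238 CPM and 295 to 448 CPM. Adipocyte markers had 5 of 6 lower (sums of 205 to 1523 CPM, then 84.5 to 624), B and plasma cell markers 3 of 3 (28.6 to 733 CPM, then 8.44 to 172) and macrophage markers 3 of 4 (107 to 735 CPM, then 76.4 to 142). Duct markers had 2 of 5 higher, with sums of 230 to 285 CPM and then 390 to 438 CPM. In edgeR without the 3 shallow libraries, 0 of 7 islet, 0 of 5 macrophage and 6 of 7 adipocyte markers were lower. Their part in the Adam17ex result was not tested.

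The third comparison set the genotypes side by side under PBS. Of 79 members, 1 was lower in Adam17ex, where 0.729% of all genes were, and 0 were higher, where 0.631% of all genes were. At an unadjusted p under 0.05, edgeR had 22 members lower and 0 higher, where 8.72% and 7.84% of all genes were. DESeq2 called 3 lower and limma-voom 1, and both called 0 higher. The called member was Atp5g1, at 101, 98.1, 78.4 and 125 CPM in Adam17ex PBS against 172 to 243 CPM in WT PBS (-0.98 ± 0.22, edgeR adjusted p = 0.0331). All 4 Adam17ex libraries, replicate 4 included, lay below the WT libraries. The median over the members was -0.35, against 0.03 over all genes, and 74 of 79 values were negative. Adam17ex PBS replicates 1, 2 and 3 had 67, 64 and 68 of the 79 members below the lowest WT PBS library, and replicate 4 had 15. Over all genes those shares were 31.1%, 29.3%, 30.7% and 23.0%.

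Without the 3 shallow libraries, which leaves 1 Adam17ex PBS library, the call of Atp5g1 was not kept. The median under PBS was then -0.10 over the members, against -0.04 over all genes. Leaving out 1 library also ended the call of Atp5g1 for replicates 2, 3 and 4 of WT PBS, replicate 1 of WT cerulein, replicates 2 and 3 of Adam17ex PBS and replicate 3 of Adam17ex cerulein. Without Adam17ex PBS replicate 4 the count was 14 lower, where 239 of 8576 genes were. Genes of the cytosolic ribosome were also low in the shallow libraries: the 82 genes summed to 22367, 23517 and 19350 CPM there and to 26776 CPM in replicate 4, against 28206 to 33682 CPM in WT PBS. Of the shallow libraries, replicates 1 and 3 are labelled male, and WT PBS had 0 males. The part of depth, ribosomal RNA, sex or tissue makeup in the low levels of the 3 shallow libraries was not tested.

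The fourth comparison set the genotypes side by side under cerulein, where no library was shallow. Here 7 of 79 members were higher in Adam17ex (5.85% of all genes were called higher) and 1 was lower (3.85% of all genes were called lower). Both shares were near the background. The median was 0.31 over the members, against 0.01 over all genes. The 7 were Ndufs6, Ndufs1, Ndufb10, Ndufv1 and Ndufs4 of complex I and Atp5h and Atp5o of complex V. Ndufs6 stood at 151, 138, 128 and 156 CPM in Adam17ex cerulein, above all WT cerulein libraries (0.67 ± 0.15, edgeR adjusted p = 0.00570). Atp5h stood at 70.7, 83.5, 79.2 and 93.3 CPM, also above all WT cerulein libraries (0.66 ± 0.17, edgeR adjusted p = 0.0110). Ndufs1, the largest core subunit of complex I, stood at 22.2, 22.2, 20.4 and 24.5 CPM in Adam17ex and at 12.7, 7.75, 10.0 and 11.6 in WT (1.10 ± 0.27, edgeR adjusted p = 0.0111). Without the 3 shallow PBS libraries, which these values do not contain, 9 members were higher and 1 lower. The count of higher members was 3 without WT cerulein replicate 1 or 3, 4 without Adam17ex cerulein replicate 2 or 3, 2 without its replicate 4 and 12 without its replicate 1. Over all genes the higher calls in these fits were, in the same order, 256, 343, 350, 403, 333 and 411. Between 8548 and 8687 genes were tested in them, and the fit with all libraries had 482 of 8236. In the same comparison all 5 tested duct markers were lower in Adam17ex (median -1.56), with sums of 390 to 438 CPM against 1090 to 1373 CPM in WT. Digestive enzymes had 7 of 36 higher and 0 lower (median 0.38). Their part in the members' differences was not tested.

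The lower member was Ndufa12, and its value depended on a copy. Ndufa12, an accessory subunit of complex I (chr10:94198720-94221443), stood at 71.5, 75.3, 84.5 and 80.2 CPM in WT cerulein and at 29.5, 35.5, 26.4 and 25.2 in Adam17ex cerulein (-1.31 ± 0.41, edgeR adjusted p = 0.0422). WT PBS was split, with 148 and 180 CPM in replicates 1 and 2 and 50.4 and 36.8 in replicates 3 and 4. The row Ndufa12-ps, an annotated copy left out by the name rule, held 11.9% and 17.7% of the summed UMIs of both rows in WT PBS replicates 1 and 2 but 67.8% and 70.6% in replicates 3 and 4. It held 14.5% to 20.9% in WT cerulein, 39.6% to 72.1% in Adam17ex PBS and 56.5% to 71.5% in Adam17ex cerulein. With both rows added, the genotypes differed by -0.18 ± 0.19 under cerulein (edgeR adjusted p = 0.609). Cerulein lowered the sum in WT (-0.75 ± 0.19, edgeR adjusted p = 0.00258) and in Adam17ex (-0.52 ± 0.19, edgeR adjusted p = 0.0475). The interaction of the sum did not pass (0.23 ± 0.27, edgeR adjusted p = 0.662). The call of Ndufa12 alone was also lost when any of the 4 WT cerulein libraries, or replicate 1, 3 or 4 of Adam17ex cerulein, was left out. Why the split between the rows differs within WT PBS was not tested.

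**Figure D4:**
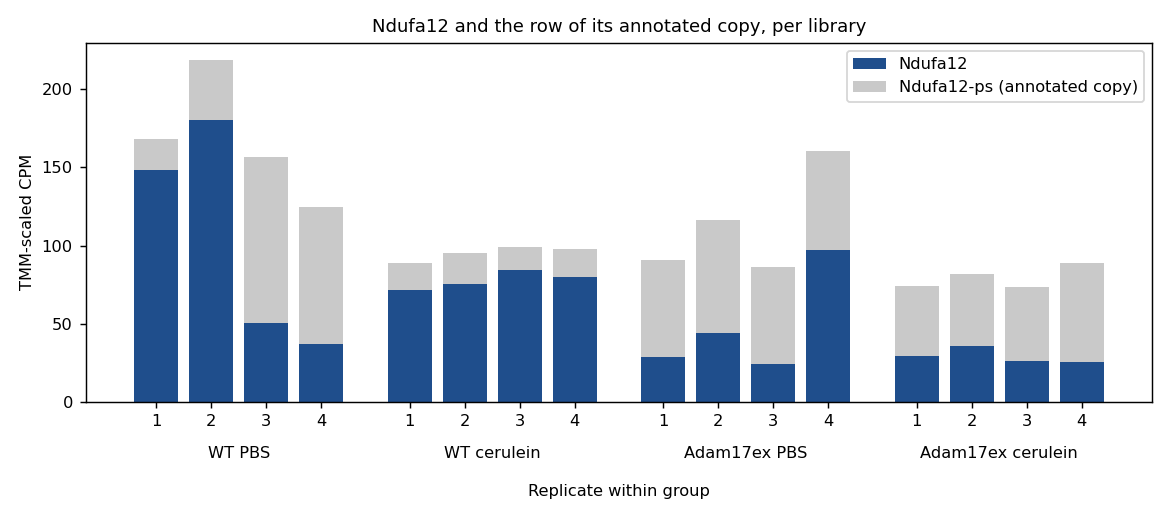
TMM-scaled CPM (y axis, stacked) of Ndufa12 and of its annotated copy Ndufa12-ps in the 16 libraries (x axis, replicate number within group). The copy takes 67.8% or more of the sum in WT PBS replicates 3 and 4 and at most 20.9% in the other 6 WT libraries.

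Other members share sequence with copies as well, and their split between rows is uncertain. Cox5b-ps held 33.3% to 46.8% of the summed UMIs with Cox5b over the 16 libraries, and Ndufb4c held 29.2% to 51.4% of the sum with Ndufb4. Ndufs5-ps held 11.3% to 33.3% of the sum with Ndufs5, and Cox7c-ps1 4.00% to 29.2% of the sum with Cox7c. Over their last 500 bases, 6 members overlapped another annotated gene on the same strand and 14 on the opposite strand, and whether the authors' counting used strand is not given in the sources used here. Cox4i1 and Atp5o are among the 6, and Ndufs1, Cox6c and Atp5o among the 14.

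The fifth comparison tested whether the cerulein effect differed between the genotypes. It did for 15 of 79 members, all with a higher value in Adam17ex (3.75% of all genes were called in that direction). None differed the other way in edgeR (2.27% of all genes did). That count was also 0 at an unadjusted p under 0.05 (9.49% of all genes), in DESeq2 and in limma-voom. The median of the interaction was 0.65, against -0.01 over all genes, and 74 of 79 values were positive. By complex the calls were 7 of 37 in complex I, 2 of 4 in II, 1 of 8 in III, 2 of 13 in IV and 3 of 17 in V, with medians of 0.70, 0.86, 0.63, 0.63 and 0.68. All 15 had fallen in WT, as had 65 of the 79 tested members, and 1 of the 15, Ndufv2, had also fallen in Adam17ex. The interaction is made from the same WT and Adam17ex effects, so this overlap is not separate evidence.

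The member with the smallest adjusted p was Atp5h: it went from between 120 and 129 CPM to between 49.8 and 60.3 CPM in WT, and from 80.6, 103, 74.3 and 111 CPM to between 70.7 and 93.3 CPM in Adam17ex. The Adam17ex groups overlapped (-0.17 ± 0.17, edgeR adjusted p = 0.451), and the interaction was 1.00 ± 0.23 (edgeR adjusted p = 0.0120). Ndufs6, at 146, 178, 157 and 209 CPM in Adam17ex PBS, had an interaction of 0.91 ± 0.21 (edgeR adjusted p = 0.0132). Atp5g1 differed by 1.26 ± 0.29 and Ndufb10, a membrane-arm accessory subunit, by 1.26 ± 0.30.

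Ndufs5, another accessory subunit, stood at 106, 129, 96.6 and 108 CPM in WT PBS and at 29.8, 49.8, 39.4 and 38.9 in WT cerulein. In Adam17ex it stood at 54.6, 43.9, 52.2 and 94.9 CPM under PBS and at 54.9, 52.4, 48.0 and 66.8 under cerulein (interaction 1.21 ± 0.28, edgeR adjusted p = 0.0126). For Ndufs5 the Adam17ex PBS libraries other than replicate 4 thus lay among the Adam17ex cerulein libraries or below them. The interactions of Ndufa5 (1.10 ± 0.27), Sdhb (1.19 ± 0.30), Sdhc (1.23 ± 0.33), Atp5g2 (1.25 ± 0.33), Cox7b (1.00 ± 0.27) and Uqcr11 (0.99 ± 0.29) also passed. Of 29 alternatives, the interaction call was lost in 17 for Uqcr11 (limma-voom among them), in 9 each for Cox7b and Sdhc, in 8 for Atp5g2, in 5 for Sdhb and in 4 for Ndufa5. Of the 13 interaction calls with a promoter window, 6 had the NRF1 motif. The median interaction was 0.70 over the 17 tested members with the motif and 0.67 over the 47 without it.

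Without the 3 shallow libraries, which leaves 1 Adam17ex PBS library, the 15 interaction calls were not kept. The median interaction there was 0.40 over the 80 members tested, against 0.08 over all genes, and 67 of the 80 values were positive. In female libraries alone the interaction had 0 calls among 79 members, where 49 of 8871 genes were called higher and 33 lower. With every library thinned to the depth of the shallowest, 9 of 77 members were called higher, where 185 of 5526 genes were. Leaving out single libraries gave 6 calls without WT cerulein replicate 3 and 7 without its replicate 4. It gave 5 and 8 without Adam17ex cerulein replicates 2 and 3, 8 and 9 without Adam17ex PBS replicates 2 and 3, and 27 without Adam17ex PBS replicate 4. Over all genes the higher calls in these fits were, in the same order, 201, 263, 146, 204, 242, 224 and 430. Between 8546 and 8687 genes were tested in them. Duct markers differed the other way, with 4 of 5 lower in the interaction (median -1.83), and digestive enzymes had 3 of 36 higher and 0 lower (median 0.41). Of the duct markers, 2 of 5 were lower without the 3 shallow libraries (median -1.68). Their part in the members' interaction was not tested.

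The partners of these genes in the mitochondrion were read from the same fits. The subunits encoded by mitochondrial DNA fell in both genotypes: 10 of the 11 tested were lower in WT (median -0.75) and 9 of 11 in Adam17ex (median -0.77), and 0 rose. Their interaction had 0 calls with a median of 0.01. The nuclear-encoded complexes had interaction medians of 0.63 or more. A positive median was not particular to them: the 80 tested genes of the cytosolic ribosome had 0.51, with 5 called higher and 1 lower. With the 3 shallow libraries left out the medians were 0.46, 0.49, 0.34, 0.30 and 0.40 for complexes I to V and 0.37 for the cytosolic ribosome. The mitochondrially encoded subunits had an interaction median of 0.01 there. Without the 3 shallow libraries, 5 of 11 mitochondrially encoded subunits were lower in Adam17ex (median -0.90). The difference between the nuclear and the mitochondrial subunits was not tested.

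Genes of the tricarboxylic acid cycle, which feeds NADH and succinate to complexes I and II, had 9 of 17 lower and 2 higher in WT (median -0.71), and 8 lower and 1 higher in Adam17ex (median -0.62; without the 3 shallow libraries 5 lower, 0 higher and -0.67). Assembly factors of the complexes had 11 of 29 lower and 2 higher in WT (median -0.38), and 10 lower and 1 higher in Adam17ex (median -0.39). Without the shallow libraries 38 assembly factors were tested in Adam17ex, with 8 lower and 0 higher (median -0.65). The mitochondrial ribosome had 21 of 76 lower and 7 higher in WT (median -0.25), and 11 lower and 4 higher in Adam17ex (median -0.11). Without the shallow libraries the last counts were 7 and 2 of 79 (median -0.24). Of 21 import genes 4 were lower and 4 higher in WT (median 0.09). Cyc1, the cytochrome c1 subunit of complex III that the name rule does not take, fell in WT by 0.73 ± 0.19 on the log2 scale (edgeR adjusted p = 0.00295). Cycs, which encodes cytochrome c itself, did not pass in WT (0.14 ± 0.17, edgeR adjusted p = 0.543) and rose in Adam17ex (0.81 ± 0.18, edgeR adjusted p = 0.00178), though it did not pass there without the 3 shallow libraries (0.76 ± 0.30, edgeR adjusted p = 0.103). Interactions of Cyc1 (0.65 ± 0.27) and Cycs (0.67 ± 0.25) did not pass (edgeR adjusted p = 0.162 and 0.108). The 80 tested genes of the cytosolic ribosome had 2 higher and 6 lower in WT (median -0.12), and 23 higher and 0 lower in Adam17ex (median 0.41). The Adam17ex counts for that list were 0 and 0 without the 3 shallow libraries (median 0.17).

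Among the regulators of mitochondrial biogenesis, Nrf1, which encodes the factor NRF1, rose in WT (1.24 ± 0.30, edgeR adjusted p = 0.00215) and in Adam17ex (1.09 ± 0.34, edgeR adjusted p = 0.0175). Its levels were low, between 5.88 and 12.6 CPM in WT PBS and between 21.0 and 22.3 CPM in WT cerulein. Esrra, an orphan nuclear receptor that drives respiratory genes, fell in WT (-1.37 ± 0.39, edgeR adjusted p = 0.00728) and in Adam17ex (-1.22 ± 0.41, edgeR adjusted p = 0.0271). Gabpa, the DNA-binding subunit of GABP, did not pass in WT (0.79 ± 0.34, edgeR adjusted p = 0.0698) and rose in Adam17ex (1.33 ± 0.41, edgeR adjusted p = 0.0177). Levels of Esrra and Gabpa were low as well. Esrra stood between 10.6 and 16.8 CPM in WT PBS and between 2.48 and 7.16 CPM in WT cerulein. Gabpa stood between 4.90 and 13.6 CPM in WT PBS and between 12.4 and 21.7 CPM in WT cerulein. The Adam17ex values of Nrf1 (1.37 ± 0.51), Esrra (-1.61 ± 0.56) and Gabpa (1.62 ± 0.65) did not pass without the 3 shallow libraries (edgeR adjusted p = 0.0760, 0.0618 and 0.103). Among the 7 regulators tested, another call in WT was Yy1, which was higher (0.67 ± 0.22, edgeR adjusted p = 0.0185). Another in Adam17ex, with the shallow libraries included, was Pprc1, which was higher (1.04 ± 0.30, edgeR adjusted p = 0.0106). The interaction did not pass for any of the 7 regulators.

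**Figure D5:**
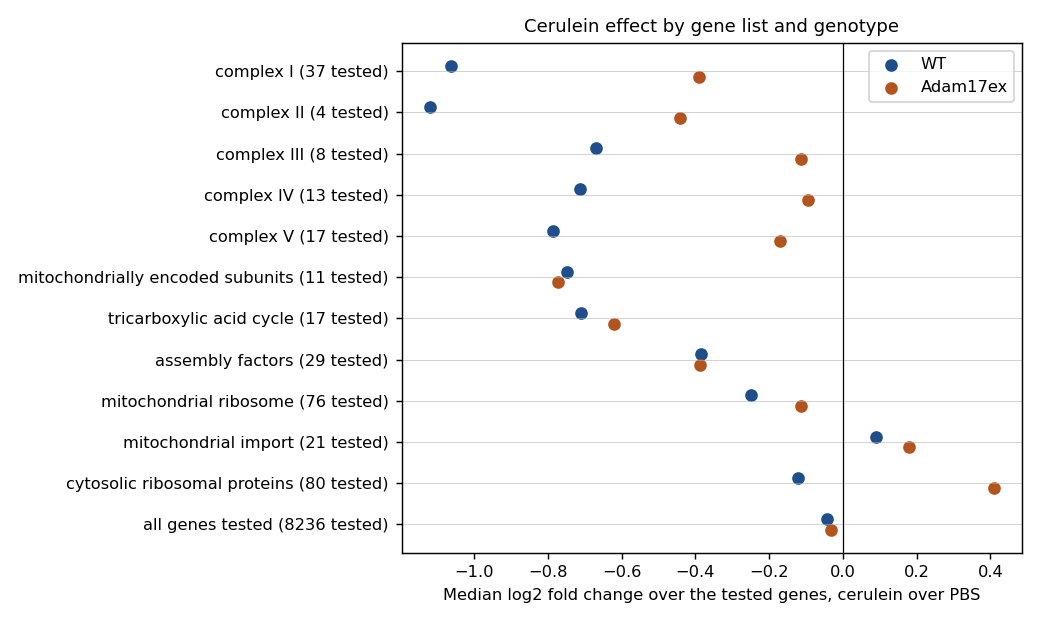
Median log2 fold change of cerulein over PBS (x axis) for each complex and for the other gene lists (y axis), in WT (blue) and Adam17ex (brown). Complexes I to V lie between -1.12 and -0.67 in WT and between -0.44 and -0.10 in Adam17ex. The mitochondrially encoded subunits lie at -0.75 and -0.77. The Adam17ex medians include the 3 shallow PBS libraries. Without those libraries (not drawn) they were -0.66, -0.86, -0.43, -0.53 and -0.40 for complexes I to V. The mitochondrially encoded subunits were then at -0.90.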

How the data were processed

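RNA from snap-frozen pancreas (30 ng per library) was read from its poly(A) end with a 10 bp UMI and 101 bp reads, per the labels' protocols. The authors deposited 1 table of raw UMI counts per gene, and its columns were matched to samples by their labels. The submitters' processing notes name GRCm38 (mm10), R 4.1.2, edgeR 3.36.0 and limma 3.50.0; for the aligner, counting settings and filters, the tool is not given in the sources used here. The deposited counts were fitted in edgeR 4.0.16 (R 4.3.3) with TMM factors, filterByExpr at a minimum count of 10 (8236 genes kept), 4 groups and sex, and the quasi-likelihood test with 11 residual degrees of freedom. A call is a Benjamini-Hochberg adjusted p under 0.05 over all genes tested. Errors of log2 fold changes are SE. The script was tested on simulated data. The values of 1 member are not reported here.

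Members, gene lists and rules were chosen with earlier results of these data known. Members named are the most abundant of each complex, the called member with the smallest adjusted p per comparison, complex and direction, complex II, up to 6 interaction calls, and tissue isoforms; others are named where the text says so or where a short set of calls is listed in full. Replicate numbers did not pair the libraries: same-numbered libraries had correlations from -0.22 to 0.24, and 6 of 16 matched their own number best. Replicates within a group differed by more than counting noise in all 24 pairs (chi-square per degree of freedom 3.06 to 9.50). Alternatives were other scaling factors, filters, tests (DESeq2 1.42.0, limma-voom 3.58.1), covariates, depths and sets of libraries.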

Additional observations from a re-analysis of the deposited data

Results flagged for a closer look

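Of 124 sets of 4 libraries checked, 8 held a library far from the other 3, and chance alone gives about 1 in 20. Atp5h was 60.3 CPM in WT cerulein replicate 4, against 49.8 to 51.6 CPM in the others of its group. Ndufa5 was 123 CPM in Adam17ex PBS replicate 4, the deep library of that group, against 77.5 to 84.4. Ndufb10 was 26.5 CPM in WT cerulein replicate 3, against 42.2 to 44.3. Ndufs6 was 197 CPM in WT PBS replicate 3, against 223 to 228. In complex II, Sdha was 23.1 CPM in WT cerulein replicate 4, against 35.3 to 35.8, and Sdhd was 47.6 CPM in WT cerulein replicate 2, against 30.6 to 33.5. Complex II took 0.0141% of the UMIs in WT cerulein replicate 3, against 0.0123% to 0.0126%, and complex III took 0.117% in Adam17ex cerulein replicate 4, against 0.0823% to 0.0878%. None of these libraries reached the range of the opposite treatment in WT mice for Atp5h, Ndufb10, Ndufs6 or Sdha.

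The cerulein effect differed between the genotypes, by the interaction term of the edgeR fit, for 15 members. The differences on the log2 scale, Adam17ex minus WT, were 0.91 for Ndufs6, 1.21 for Ndufs5, 1.26 for Ndufb10, 1.10 for Ndufa5, 1.00 for Ndufa11, 0.91 for Ndufb7 and 1.07 for Ndufv2 in complex I. They were 1.19 for Sdhb and 1.23 for Sdhc in complex II, 0.99 for Uqcr11 in complex III, 1.00 for Cox7b and 0.94 for Cox6c in complex IV, and 1.00 for Atp5h, 1.26 for Atp5g1 and 1.25 for Atp5g2 in complex V. With the 3 shallow Adam17ex PBS libraries left out, 0 of these differences passed in edgeR.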

How the results depend on the processing

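Over 29 alternatives, 17 of 35 named tests of single members kept direction and call in all, and 0 reversed. In WT the members lower were 56 to 67 in every alternative, 67 with the replicate block. In Adam17ex they were 4 with no filter and 2 in females only, and 3 to 9 with 1 library left out, where members higher were 0 to 2. Under PBS the members lower were 5 with no filter, 3 in DESeq2, 6 with no sex term, 2 with the replicate block and 0 in females, thinned or without the 3 shallow libraries, and 0 to 14 with 1 library left out. Under cerulein the members higher were 2 with no filter, 1 in females, 3 when thinned and 2 to 12 with 1 library left out; the lower member was lost in females (0), with copies added to their parent genes (0, chosen after seeing the data) and in 7 of the fits that leave out 1 library (0 to 1). The interaction had 0 calls in females and without the 3 shallow libraries, 9 when thinned and 5 to 27 with 1 library left out. With the replicate block the count was 9 in Adam17ex and 16 for the interaction. Counts over all genes moved between these alternatives as well. Fewer libraries or UMIs are part of the females, thinned and left-out alternatives. For the others the cause was not tested. Without digestive enzymes in the total, the members' share was 2.29%, 1.21%, 1.50% and 1.31% in WT PBS, WT cerulein, Adam17ex PBS and Adam17ex cerulein. Depth limits members under about 10 counts per library.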
